A study of Mus musculus with 4 samples.

Results

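Immediate early genes are switched on within minutes of a stimulus, without new protein synthesis, and their transcripts decay quickly. The signals of 10 of them were read in newborn mouse semilunar valve leaflets, which were dissected by hand before their RNA was preserved. The genes were the AP-1 subunits Fos, Fosb, Jun, Junb and Jund, the related factor Atf3, the zinc finger factors Egr1, Egr2 and Egr3, and Ier2. All probe sets of the array annotated to one of these symbols and to no other gene were taken, which gave 14 probe sets of 45037. Kept for testing were 11 of the 14, for 9 of the 10 genes, because their mean lay above the median of all probe sets.

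The AP-1 proteins bind DNA as dimers through a leucine zipper. Fos proteins need a Jun partner, while Jun proteins can also pair with each other. The EGR proteins bind GC-rich sites through zinc fingers, and Egr1 is also known as a target of fluid shear in endothelium. Most of these genes respond to growth factors, stretch and injury through the kinase ERK and the serum response factor SRF, and tissue handling is a well-known inducer.

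The groups were Cxcr7-/- neonates, which lack the CXCL12-binding receptor Cxcr7 (now Ackr3), and Control neonates, described as wildtype littermates. The age was neonatal, and neither a strain nor the design of the mutant allele was given. Each genotype had 2 pools of 3 neonates, with 1 array a pool, and a pool averages its animals. Mutant neonates gave 4 to 6 leaflets each and wildtype neonates 6. Leaflets were isolated in PBS under a microscope and collected in TRIzol on ice, and the time each dissection took was not given in the sources used here. Values are MAS5 signals, an intensity on a linear scale, and a level is compared across pools within a probe set, never between probe sets.

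Cxcr7 itself read 28.3 and 328 in Cxcr7-/- leaflets, against 4936 and 5698 in Control leaflets. All 11 valve interstitial and all 11 endothelial markers looked up lay above the filter, and so did all 16 cardiomyocyte and all 12 macrophage markers. The summed cardiomyocyte signal was 100036 and 148739 in Cxcr7-/- leaflets, against 184826 and 262269 in Control leaflets. Summed macrophage signal reached 21178 and 19238 in Cxcr7-/- leaflets, against 13838 and 11391 in Control leaflets. The 3′ to 5′ signal ratio of control probe sets is a sign of RNA quality and of amplification. For Gapdh it was 12.6 and 8.20 in Cxcr7-/- leaflets, against 12.7 and 24.2 in Control leaflets, with Control replicate 2 highest. For Actb it was 15.5 and 11.7 in Cxcr7-/- leaflets, against 20.2 and 19.1 in Control leaflets, with both Control pools above both mutant pools and Control replicate 2 not the highest. Genotype differences without Control replicate 2 are given for some of the genes named. In pooled tissue, fewer cells of a type and less RNA per cell cannot be told apart.

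None of the kept probe sets of these genes passed the test between genotypes, and most differed more between pools of one genotype than between genotypes. Fosb, with no kept probe set, was not in this fit. Cxcr7 itself did not pass either, at a log2 fold change of -5.33 ± 0.76 (SE, adjusted p = 0.400 in limma). A gene that did not pass is therefore not shown to be unchanged. Over all kept probe sets, 0 of 22518 passed an adjusted p of 0.05 in limma (0%), and 2279 (10.1%) had an unadjusted p under 0.05. Of the 11 probe sets of the immediate early genes, 0 were higher (background 3.94%) and 0 lower (background 6.18%) at an unadjusted p under 0.05, and the adjusted p ran between 0.659 and 0.961. In 10 of the 11, the larger of the differences between pools of one genotype exceeded the difference between the genotype means, against 71.5% of all kept probe sets. The genotypes overlapped in 10 of 11, and did not overlap in 1, against 42.4% of all kept probe sets without overlap.

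**Figure D1:**
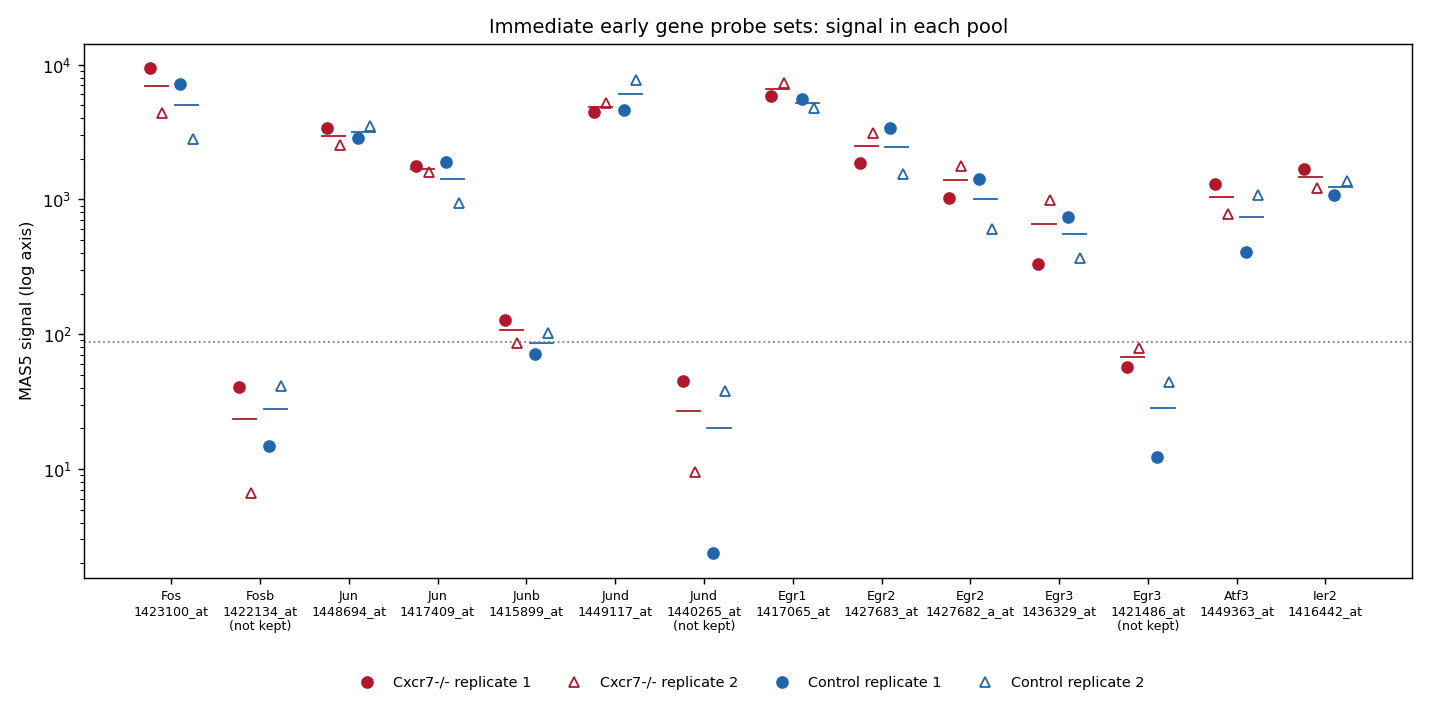
MAS5 signal (log axis) of each of the 14 probe sets in each pool, with Cxcr7-/- pools in red and Control pools in blue, replicate 1 filled and replicate 2 open, and short lines at the mean of each genotype. Levels of different probe sets are not comparable; the dotted line marks the mean signal needed to be kept, and within a column the genotypes overlap except for Egr1 and the dim probe set of Egr3.

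Fos encodes the founding AP-1 subunit and is the classic marker of recent stimulation. Its probe set 1423100_at read 9396 and 4390 in Cxcr7-/- leaflets against 7204 and 2806 in Control leaflets. Replicate 1 of each genotype was high and replicate 2 low, and the genotypes overlapped. The mean was 6893 ± 3540 in Cxcr7-/- pools and 5005 ± 3110 in Control pools (SD, n = 2 each). The log2 fold change was 0.51 ± 0.49 (SE), with a 95% interval of -0.62 to 1.64 and an adjusted p of 0.752 in limma. Within genotypes the higher pool exceeded the lower 2.14-fold in Cxcr7-/- leaflets and 2.57-fold in Control leaflets. Counted on the log2(signal + 22) scale, where 22 is a pseudocount, Fos alone of the 11 probe sets reached 2-fold in both genotypes, which 1.63% of all kept probe sets did. Fosb, which encodes a Fos relative, had a single probe set, which was not kept. It read 40.6 and 6.61 in Cxcr7-/- leaflets against 14.9 and 41.3 in Control leaflets, below the filter, where MAS5 signals carry large relative errors.

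The window just before the annotated start of Fos, Junb and Atf3, and a short stretch before one start of Egr2, are shown because these genes stand for 3 different pairs of high pools, as the values of each gene show. The sequences come from the RefSeq promoter table of build GRCm38.p6 and run 5′ to 3′ along the gene. Capitals mark matches to TGACG, the core of the cyclic AMP response element, on either strand (read as CGTCA on the opposite one), to TATAAA, and to the CArG box that SRF binds.
Fos, chr12:85473790-85473889, plus strand: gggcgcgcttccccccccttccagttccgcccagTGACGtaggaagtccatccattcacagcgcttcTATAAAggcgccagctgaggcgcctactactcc
Junb, chr8:84978749-84978868, minus strand: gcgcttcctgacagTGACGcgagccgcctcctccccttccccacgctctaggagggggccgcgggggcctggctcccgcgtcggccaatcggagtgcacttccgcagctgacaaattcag
Atf3, chr1:191183334-191183453, minus strand: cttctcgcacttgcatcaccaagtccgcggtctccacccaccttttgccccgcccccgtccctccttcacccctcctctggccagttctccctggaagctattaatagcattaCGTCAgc
Egr2, chr10:67537795-67537824, plus strand: gtCCATATATGGgcagcgaCGTCAcgggta

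The table held 11 windows of 300 bases for 7 of the 10 genes, and Egr1, Egr3 and Ier2 had none. Each window ran from 250 bases before the annotated start to 50 after it, so sites farther upstream were not searched. TGACG, searched on both strands, was found in windows of 5 of these genes, Atf3, Egr2, Fos, Fosb and Junb, and in 20.8% of all 32851 windows. The full element TGACGTCA, of which TGACG is a part, was in none of the 11 windows and in 1.79% of all. A CArG box was found in 4 of the 5 windows of Egr2 and in 1.63% of all windows. Some of these Egr2 windows overlap and hold the same box, so they are not separate sites. TATAAA was in the windows of Fos and Junb and in 13.6% of all. The Junb match begins at the annotated start and lies outside the stretch shown. GCGGGGGCG, an EGR site, was in the Fosb window and in 2.91% of all, and TGACTCA, the AP-1 site, in none of the 11 and in 5.20% of all. These matches describe letters in a window: Fos, Junb, Atf3 and Egr2 share TGACG, while Fos and Egr2 had other high pools than Junb and Atf3.

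Jun, the main dimer partner of Fos, was read by a pair of probe sets that did not go together. Probe set 1448694_at read 3387 and 2520 in Cxcr7-/- leaflets against 2868 and 3509 in Control leaflets. Probe set 1417409_at read 1777 and 1603 in Cxcr7-/- leaflets against 1896 and 941 in Control leaflets. Control replicate 2 was therefore the highest pool by one probe set and the lowest by the other. The log2 fold changes were -0.12 ± 0.26 and 0.33 ± 0.35 (SE), with adjusted p of 0.908 and 0.779 in limma.

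Junb, a Jun relative induced by many of the same stimuli, read 128 and 86.2 in Cxcr7-/- leaflets against 70.9 and 103 in Control leaflets. This was the dimmest probe set kept, and Cxcr7-/- replicate 1 and Control replicate 2 were the high pools. Its log2 fold change was 0.24 ± 0.43 (SE, adjusted p = 0.879 in limma).

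Jund, the Jun relative with the steadiest expression in resting cells, read 4466 and 5187 in Cxcr7-/- leaflets against 4567 and 7632 in Control leaflets by probe set 1449117_at. Control replicate 2 stood above the other pools, which lay within a narrow range, and the log2 fold change was -0.29 ± 0.29 (SE, adjusted p = 0.761 in limma). The other Jund probe set, 1440265_at, was not kept and read 44.6 and 9.52 in Cxcr7-/- leaflets against 2.37 and 38.0 in Control leaflets.

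Atf3, which encodes a stress-induced relative of the AP-1 proteins, read 1294 and 773 in Cxcr7-/- leaflets against 406 and 1080 in Control leaflets. Control replicate 1 was lowest, and Control replicate 2 fell between the mutant pools. The mean was 1034 ± 368 in Cxcr7-/- pools and 743 ± 477 in Control pools (SD, n = 2 each). Its log2 fold change of 0.58 was the largest of the 11 probe sets, with an SE of 0.47, a 95% interval of -0.52 to 1.67 and an adjusted p of 0.712 in limma. The Control pools differed 2.66-fold and the Cxcr7-/- pools 1.67-fold.

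Ier2, a small nuclear protein induced early by growth factors, read 1692 and 1225 in Cxcr7-/- leaflets against 1074 and 1377 in Control leaflets. It had the same high pools as Atf3, with differences of 1.38-fold and 1.28-fold within the genotypes. Its log2 fold change was 0.24 ± 0.29 (SE, adjusted p = 0.808 in limma).

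Egr1 was the 1 kept gene whose genotypes did not overlap. It read 5890 and 7299 in Cxcr7-/- leaflets against 5594 and 4787 in Control leaflets. Both mutant pools were above both Control pools, though Cxcr7-/- replicate 1 and Control replicate 1 were close, and after quantile normalization the genotypes overlapped. The mean was 6595 ± 996 in Cxcr7-/- pools and 5190 ± 570 in Control pools (SD, n = 2 each). The log2 fold change was 0.34 ± 0.23 (SE), with a 95% interval of -0.20 to 0.88 and an adjusted p of 0.659 in limma. Higher without overlap were 20.1% of all kept probe sets. Egr1 had the closest replicates of the 11 probe sets by the larger of its pool differences, 1.24-fold between Cxcr7-/- pools and 1.17-fold between Control pools.

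Egr2, known for its role in Schwann cell myelination, was read by a pair of probe sets that went together. Probe set 1427683_at read 1860 and 3115 in Cxcr7-/- leaflets against 3362 and 1533 in Control leaflets. Probe set 1427682_a_at read 1015 and 1758 in Cxcr7-/- leaflets against 1410 and 604 in Control leaflets. Cxcr7-/- replicate 2 and Control replicate 1 were the high pools in both, by 1.67-fold and 1.73-fold in Cxcr7-/- leaflets and by 2.19-fold and 2.33-fold in Control leaflets. The log2 fold changes were 0.08 ± 0.41 and 0.52 ± 0.44 (SE), with adjusted p of 0.961 and 0.720 in limma.

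Egr3, a relative known for its role in muscle spindle development, had the same high pools as Egr2. Its probe set 1436329_at read 331 and 984 in Cxcr7-/- leaflets against 736 and 369 in Control leaflets. The Cxcr7-/- pools differed 2.98-fold, the widest gap of the kept probe sets, and the Control pools 1.99-fold. The log2 fold change was 0.13 ± 0.53 (SE), with a 95% interval of -1.10 to 1.36 and an adjusted p of 0.953 in limma. Its other probe set, 1421486_at, was not kept and read 56.7 and 79.2 in Cxcr7-/- leaflets against 12.2 and 44.2 in Control leaflets, with no overlap. Just inside the filter was Junb, and this probe set of Egr3 was the brightest member left out.

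**Figure D2:**
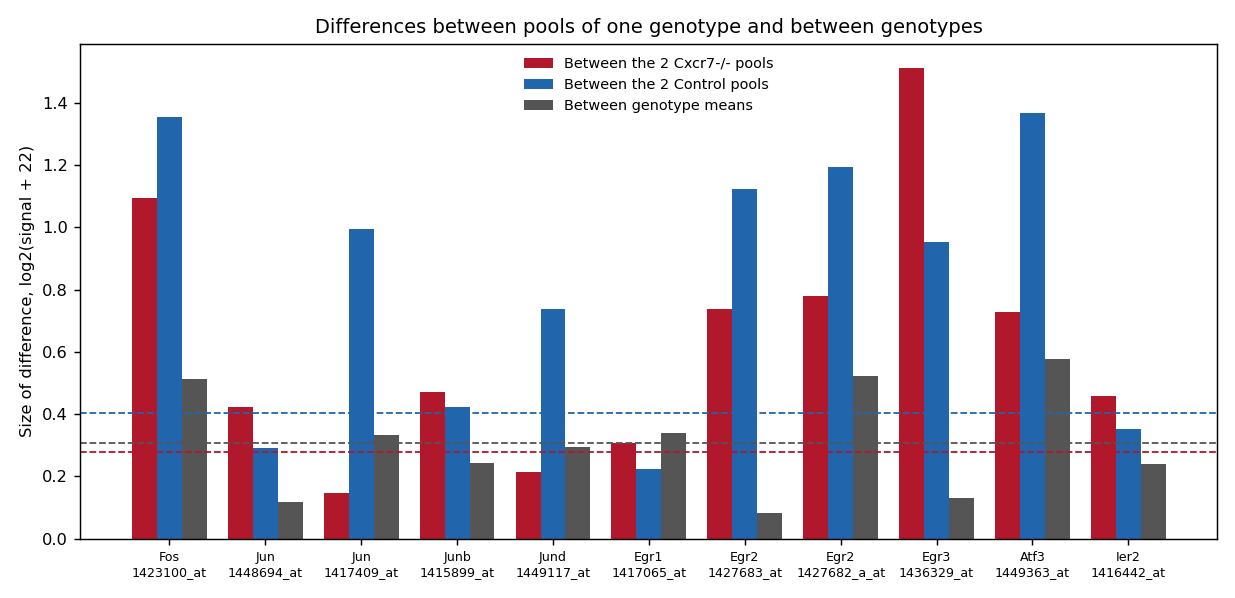
Size of the difference in log2(signal + 22) for each of the 11 kept probe sets, between the Cxcr7-/- pools (red), between the Control pools (blue) and between the genotype means (grey), with dashed lines at the median of all 22518 kept probe sets in the same colours. Only for Egr1 is the grey bar the tallest.

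Variation between pools of one genotype was wide for these genes. The median size of the difference, in log2(signal + 22), was 0.47 between the Cxcr7-/- pools over the 11 probe sets, against 0.28 over all kept probe sets. Between the Control pools it was 0.95, against 0.40 over all kept probe sets. Between the genotype means the median size was 0.29, against 0.31 over all kept probe sets. On that scale, at least 2-fold apart within one genotype or the other were 5 of the 11 probe sets, against 16.4% of all kept probe sets. They were Fos, both probe sets of Egr2, Egr3 and Atf3. Between the Cxcr7-/- pools 2 reached 2-fold, against 5.52%, and between the Control pools 4 did, against 12.5%. Among probe sets above the 75th percentile, where dim signals weigh less, it was 5 of 10 in either genotype, against 10.1% of all such probe sets. These counts are descriptions with no test, since the members share the same 4 arrays.

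The genes did not share one high pool. Cxcr7-/- replicate 1 and Control replicate 2 were the high pools of their genotypes for 4 of the 11 probe sets (Atf3, Ier2, Junb and 1 of Jun), against 27.5% of all kept probe sets. Cxcr7-/- replicate 2 and Control replicate 1 were high for another 4 (Egr1, both of Egr2, and Egr3), against 29.5%. Both replicates numbered 1 were high for Fos and for the other Jun probe set, against 23.2%, and both numbered 2 were high for Jund, against 19.8%. These groupings were chosen after the values were seen. Control replicate 2 was the lowest of the 4 pools for 5 probe sets, those of Fos, Egr1 and Egr2 and 1 of Jun, and the highest for Jund and the other Jun probe set. Cxcr7-/- replicate 1 was the highest for 4, those of Fos, Junb, Atf3 and Ier2.

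**Figure D3:**
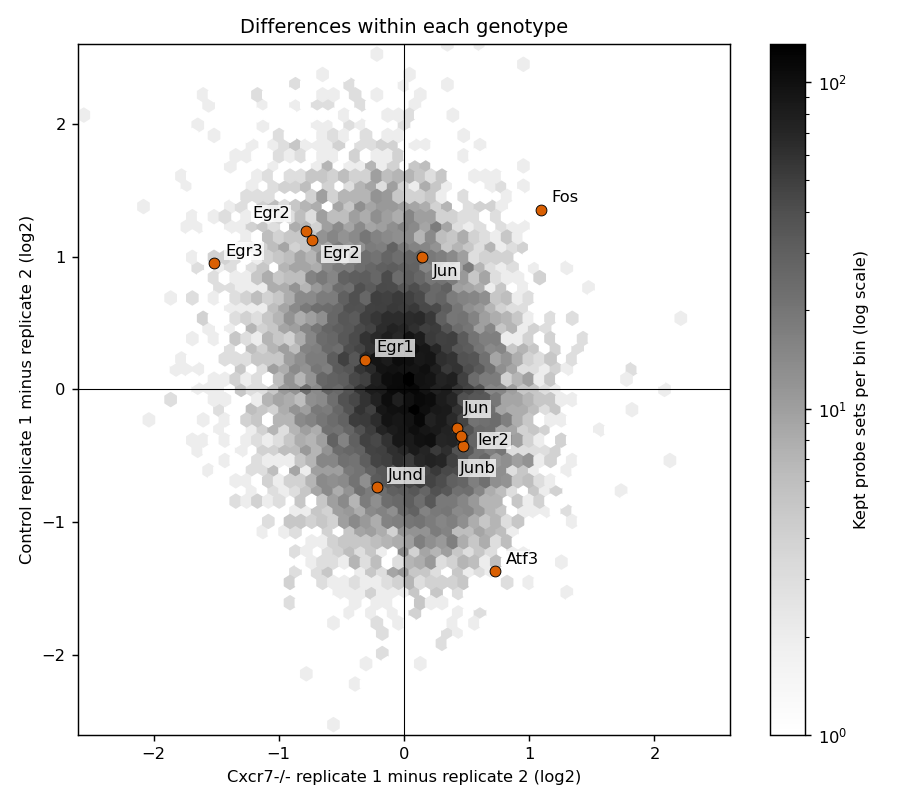
Difference between the Cxcr7-/- pools (x axis) and between the Control pools (y axis), as replicate 1 minus replicate 2 in log2(signal + 22), for all kept probe sets (grey bins, darker for more) and for the 11 kept probe sets of immediate early genes (orange). Fos lies at the upper right, Egr2 and Egr3 at the upper left and Atf3 at the lower right; 140 probe sets beyond the axes are not drawn.

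Markers of other cells also differed between pools of one genotype. Among all kept probe sets, 19.8% had the high pools of Jund, 29.5% those of Egr2 and Egr3, 23.2% those of Fos and 27.5% those of Atf3 and Ier2. Of 16 cardiomyocyte markers, 13 were high in Cxcr7-/- replicate 2 and Control replicate 2, the high pools of Jund, and so were 4 of 7 kept smooth muscle and 3 of 5 kept lung epithelial markers. The high pools of Egr2 and Egr3, Cxcr7-/- replicate 2 and Control replicate 1, were those of 6 of 7 kept mast cell and neutrophil markers. Summed over all 10 of that list, the signal was 989 and 3121 in Cxcr7-/- leaflets, against 3985 and 1425 in Control leaflets. Of 11 valve interstitial markers, 6 had these high pools as well, with a summed signal of 329372 and 342128 in Cxcr7-/- leaflets, against 343406 and 243801 in Control leaflets.

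The high pools of Fos, both replicates numbered 1, were those of 6 of 12 macrophage markers and of 4 of 6 kept neuronal and Schwann cell markers. The neuronal and Schwann cell signals summed to 2923 and 2350 in Cxcr7-/- leaflets, against 1723 and 1663 in Control leaflets. Among these markers Sox10, the Schwann cell transcription factor, read 117 and 114 in Cxcr7-/- leaflets against 112 and 98.3 in Control leaflets, and 0 of the 6 had the high pools of Egr2. Of 11 endothelial markers, 7 were high in the same pools as Atf3 and Ier2, with a summed signal of 14368 and 12508 in Cxcr7-/- leaflets, against 17967 and 22495 in Control leaflets. Of 2 kept erythroid markers, 1 had the high pools of Egr2 and 1 those of Jund. No marker of these lists was at 0 in any pool. The part of cell makeup and RNA quality in the differences between pools was not tested.

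The direction of most genotype differences turned when 1 pool was left out. With all 4 pools, 9 of the 11 log2 fold changes were positive, against 48.2% of all kept probe sets, and their median was 0.24, against -0.02 over all. Over the 4 fits that each left out 1 pool, 8 of the 11 changed sign at least once. The 3 that did not were Egr1, at 0.19 to 0.49, Junb, at 0.01 to 0.48, and Ier2, at 0.01 to 0.47. Without Control replicate 2, 7 of the 11 had the opposite sign, among them Fos at -0.16 and Egr2 at -0.48 and -0.076. Sign changes were not counted over all kept probe sets, so neither count is shown to be particular to these genes. Without Control replicate 1, Atf3 was at -0.11, and without Control replicate 2 it was at 1.26. The smallest adjusted p of any of the 11 in these fits was 0.101 in limma, for Fos at 1.19 without Control replicate 1, a setting in which 673 probe sets of the array passed. In each of these fits 1 genotype has a single pool, which is assumed to vary as the 2 pools of the other genotype do, so its p-values carry no spread of their own for that genotype.

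**Figure D4:**
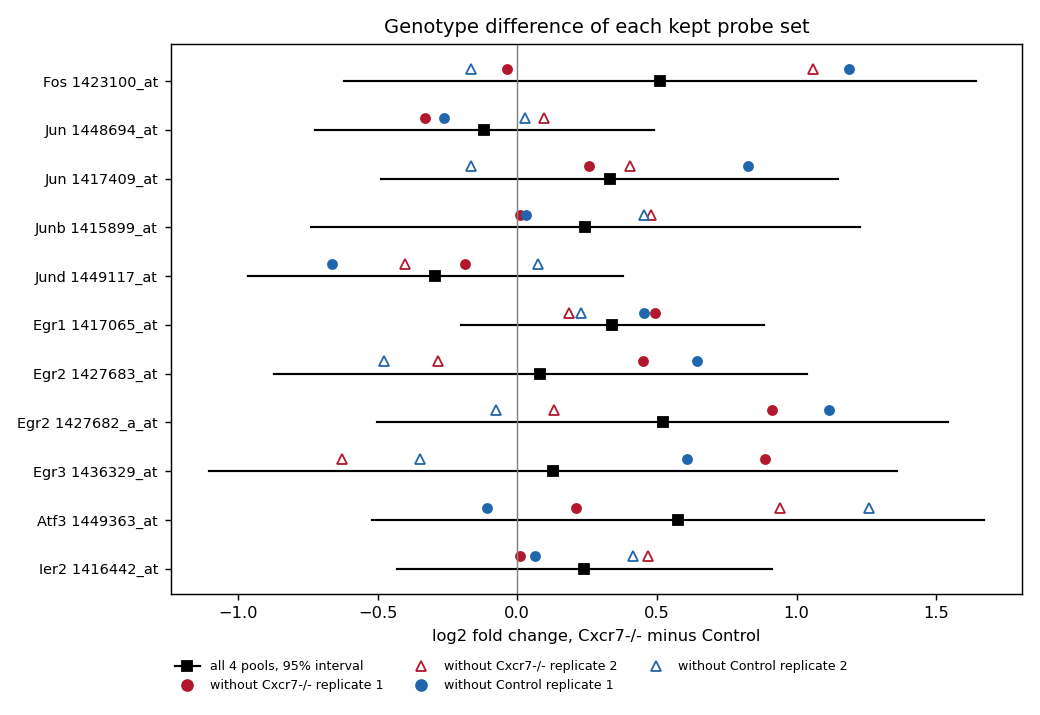
Log2 fold change, Cxcr7-/- minus Control, of each of the 11 kept probe sets with all 4 pools (black square with its 95% interval) and with 1 pool left out (coloured symbols above it). Every interval spans 0, and only for Egr1, Junb and Ier2 do all coloured symbols stay on one side of 0.

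The wider family of early response genes, their regulators and heat shock genes was read as 5 lists. Of their 86 kept genes, 5 were higher and 4 lower at an unadjusted p under 0.05, together 10.5%, against 10.1% of all kept probe sets, and 0 passed adjusted over all probe sets in limma. Positive log2 fold changes were found for 44 of the 86, with a median of 0.01.

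Among 18 other immediate early transcription factors, 7 were positive (median -0.06). At an unadjusted p under 0.05, 2 were higher and 0 lower, together 11.1%, near the 10.1% of all kept probe sets (3.94% higher, 6.18% lower). Both are orphan nuclear receptors. Nr4a1 read 2379 and 1209 in Cxcr7-/- leaflets against 724 and 687 in Control leaflets, a log2 fold change of 1.24 ± 0.35 (SE, adjusted p = 0.406 in limma), and of 1.21 without Control replicate 2. Nr4a2, by its brightest probe set, read 2336 and 1627 in Cxcr7-/- leaflets against 1237 and 761 in Control leaflets, at 0.99 ± 0.33 (adjusted p = 0.442 in limma) and at 0.65 without Control replicate 2. By these probe sets both genes had the high pools of Fos, without its overlap of the genotypes. The other 3 kept probe sets of Nr4a2 were at 0.33, 0.93 and 1.00, and in 2 of them Control replicate 2 was the higher Control pool. In 1 of those, at 355 and 167 in Cxcr7-/- leaflets against 175 and 206 in Control leaflets, the genotypes overlapped. Their relative Nr4a3 went the other way, with 214 and 151 in Cxcr7-/- leaflets against 237 and 390 in Control leaflets (adjusted p = 0.587 in limma). Hes1, a repressor induced by Notch, read 649 and 735 in Cxcr7-/- leaflets against 454 and 504 in Control leaflets (adjusted p = 0.591 in limma).

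By high pools, 8 of these 18 genes went with Jund, against 19.8% of all kept probe sets, and 7 with Atf3 and Ier2, against 27.5%. The widest difference between pools was that of Klf10, a factor induced by TGF-beta, among the 8. It read 1359 and 1412 in Cxcr7-/- leaflets against 1090 and 2810 in Control leaflets. The flow-responsive factor Klf2 read 4710 and 2102 in Cxcr7-/- leaflets against 2302 and 4774 in Control leaflets. Csrnp1, a cysteine- and serine-rich nuclear protein, read 970 and 435 in Cxcr7-/- leaflets against 341 and 715 in Control leaflets. Cebpd, a leucine zipper factor of acute responses, read 1746 and 1195 in Cxcr7-/- leaflets against 841 and 2033 in Control leaflets. Klf2, Csrnp1 and Cebpd were among the 7, and the genotypes overlapped in all 4 genes.

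Among 34 early response and feedback genes that encode no DNA-binding factor, 21 were positive (median 0.12). At an unadjusted p under 0.05, 3 were higher and 3 lower, together 17.6%, against 3.94% higher and 6.18% lower among all kept probe sets. Hbegf, an EGF receptor ligand, read 616 and 662 in Cxcr7-/- leaflets against 1984 and 2283 in Control leaflets, at -1.70 ± 0.26 (SE, adjusted p = 0.400 in limma), and its other kept probe set was at -0.73 ± 0.27, with 638 and 644 in Cxcr7-/- leaflets against 1052 and 1100 in Control leaflets. Dusp2, a nuclear phosphatase of MAP kinases, read 770 and 462 in Cxcr7-/- leaflets against 114 and 254 in Control leaflets, at 1.67 ± 0.44 (adjusted p = 0.406 in limma). Ier3, an early response gene of cell survival, read 2125 and 1661 in Cxcr7-/- leaflets against 3162 and 6668 in Control leaflets, at -1.28 ± 0.37 (adjusted p = 0.406 in limma). Gadd45b, a gene of the DNA damage and stress response, read 423 and 374 in Cxcr7-/- leaflets against 691 and 825 in Control leaflets, at -0.89 ± 0.29 (adjusted p = 0.441 in limma), and its other kept probe set was at -0.87. Without Control replicate 2 the log2 fold changes were -1.60 for Hbegf, 2.18 for Dusp2, -0.74 for Ier3 and -0.77 for Gadd45b.

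The widest differences between pools in this list lay elsewhere. Ptgs2, the inducible prostaglandin synthase, read 111 and 518 in Cxcr7-/- leaflets against 101 and 127 in Control leaflets, so Cxcr7-/- replicate 2 alone was high. In the next 3 genes, each by its brightest probe set, Control replicate 1 was the lowest pool and Control replicate 2 the highest. The clock gene Per1 read 495 and 466 in Cxcr7-/- leaflets against 261 and 1036 in Control leaflets. Plk3, a kinase of the stress response, read 120 and 92.8 in Cxcr7-/- leaflets against 44.3 and 179 in Control leaflets. Cxcl1, a chemokine that draws neutrophils, read 170 and 171 in Cxcr7-/- leaflets against 128 and 358 in Control leaflets. By its other kept probe set Cxcl1 read 135 and 139 in Cxcr7-/- leaflets against 142 and 314 in Control leaflets, so Control replicate 1 was not the lowest there.

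**Figure D5:**
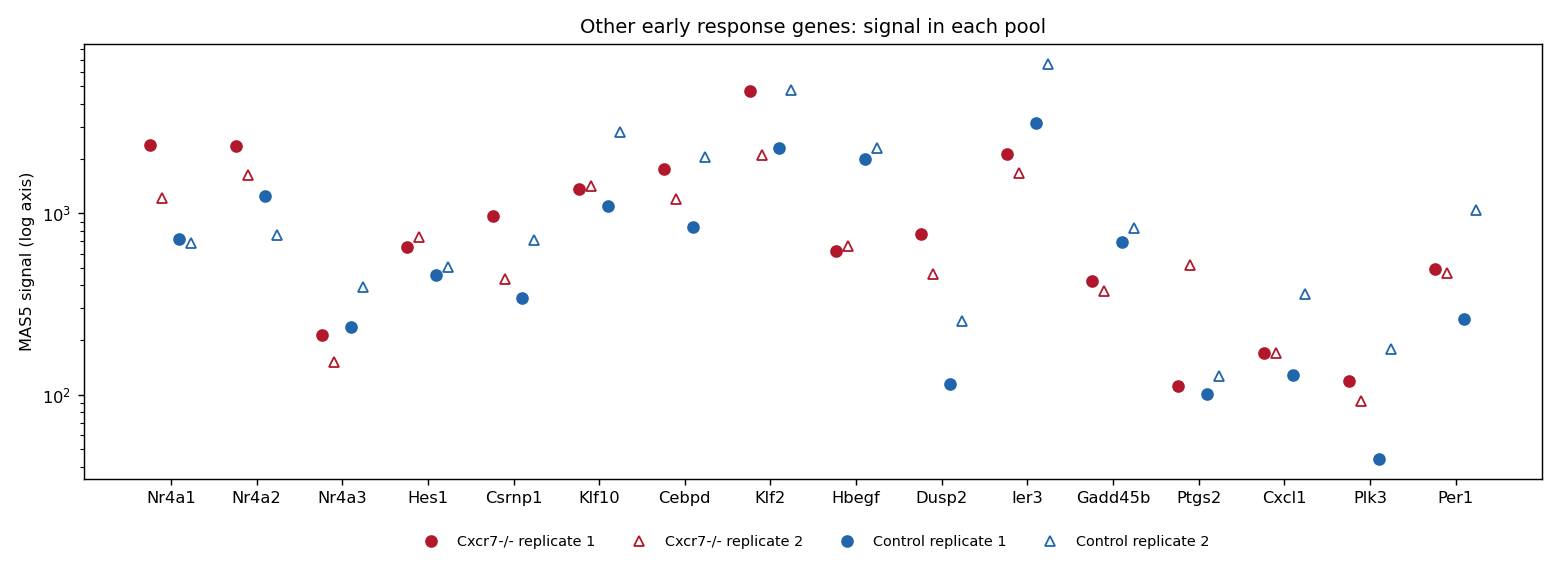
MAS5 signal (log axis) in each pool for 16 genes of the wider early response lists, with Cxcr7-/- pools in red and Control pools in blue, replicate 1 filled and replicate 2 open. By their brightest probe sets, Nr4a1, Nr4a2, Hes1 and Dusp2 are higher and Nr4a3, Hbegf, Ier3 and Gadd45b lower in both Cxcr7-/- pools, while the other 8 overlap. The genes were named for the smallest p or the widest pool differences in these data, so this split follows in part from that rule. Of all kept probe sets 42.4% do not overlap, and none of the 16 genes passed the adjusted threshold.

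Of 16 kept upstream regulators, each read by its brightest probe set, 7 were positive (median -0.02) and 0 had an unadjusted p under 0.05. Srf, which encodes the factor that binds the CArG box, read 579 and 993 in Cxcr7-/- leaflets against 1211 and 1384 in Control leaflets, at -0.75 ± 0.33 (SE, adjusted p = 0.494 in limma). Its other kept probe set was at 0.04 ± 0.41. Crem, a cyclic AMP response factor with an inducible repressor form, read 1601 and 1481 in Cxcr7-/- leaflets against 1197 and 768 in Control leaflets, at 0.67 ± 0.30 (adjusted p = 0.502 in limma), and at 0.36 without Control replicate 2. Its other kept probe set read 1027 and 845 in Cxcr7-/- leaflets against 548 and 283 in Control leaflets, at 1.19 ± 0.37, with an unadjusted p of 0.012. Elk4, a partner of SRF, read 3701 and 3553 in Cxcr7-/- leaflets against 4106 and 5011 in Control leaflets. The pools differed most in Rps6ka3, a kinase activated by ERK, with 3432 and 10040 in Cxcr7-/- leaflets against 6366 and 1404 in Control leaflets. Creb1, the cyclic AMP response factor, read 2933 and 2980 in Cxcr7-/- leaflets against 3700 and 1864 in Control leaflets. Nab2, a corepressor that binds EGR proteins, read 145 and 211 in Cxcr7-/- leaflets against 228 and 120 in Control leaflets. By these probe sets, Rps6ka3, Creb1 and Nab2 had the high pools of Egr2 and Egr3. In all, 4 of the 16 genes had them, against 29.5% of all kept probe sets. The other kept probe set of Rps6ka3 had the same high pools, but those of Creb1 did not. The dimmer Creb1 probe set read 215 and 267 in Cxcr7-/- leaflets against 123 and 141 in Control leaflets, without overlap, at 0.77 ± 0.36 (SE). The brighter read 1973 and 1868 in Cxcr7-/- leaflets against 2231 and 1447 in Control leaflets, with the high pools of Fos.

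Of 6 kept AP-1 relatives, 3 were positive (median 0.01), and 0 had an unadjusted p under 0.05. Atf4, the factor of the integrated stress response, read 2184 and 4680 in Cxcr7-/- leaflets against 7292 and 4107 in Control leaflets, at -0.77 ± 0.41 (SE, adjusted p = 0.568 in limma). Atf2, a partner of Jun, read 2774 and 3784 in Cxcr7-/- leaflets against 2336 and 2345 in Control leaflets by its brightest probe set. Read so, it was the 1 gene of the 6 without overlap, against 42.4% of all kept probe sets. Its other kept probe sets were at 0.38, 0.20 and -0.23, and the genotypes overlapped in those at 0.20 and -0.23. Atf7, a relative of Atf2, read 94.4 and 168 in Cxcr7-/- leaflets against 180 and 103 in Control leaflets, with the high pools of Egr2. The dim Batf read 51.7 and 109 in Cxcr7-/- leaflets against 91.8 and 123 in Control leaflets. Jdp2, which dimerizes with Jun, read 813 and 744 in Cxcr7-/- leaflets against 536 and 886 in Control leaflets.

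Heat shock genes, another class that responds to tissue handling, were 12 in number, with 6 positive and a median of -0.01. At an unadjusted p under 0.05, 0 were higher and 1 lower, together 8.33%, against 10.1% of all kept probe sets (3.94% higher, 6.18% lower). Hspa1a read 660 and 606 in Cxcr7-/- leaflets against 979 and 1033 in Control leaflets, at -0.65 ± 0.27 (SE, adjusted p = 0.479 in limma). Its near-identical copy Hspa1b read 2449 and 3584 in Cxcr7-/- leaflets against 3380 and 3306 in Control leaflets, and the copies may share probes. Hspb1, a small heat shock protein also abundant in muscle, read 2797 and 2725 in Cxcr7-/- leaflets against 2688 and 7008 in Control leaflets, so Control replicate 2 stood above the other pools. Its other kept probe set read 2232 and 2168 in Cxcr7-/- leaflets against 2666 and 7431 in Control leaflets, without overlap. That probe set was at -1.01 ± 0.44 (SE, unadjusted p = 0.049 in limma). The mitochondrial chaperonin Hspd1 read 6038 and 5920 in Cxcr7-/- leaflets against 5193 and 3929 in Control leaflets, without overlap (adjusted p = 0.613 in limma). The cytosolic chaperone Hsp90aa1 read 13016 and 18503 in Cxcr7-/- leaflets against 15840 and 10084 in Control leaflets. Heme oxygenase, encoded by Hmox1, read 115 and 82.6 in Cxcr7-/- leaflets against 102 and 151 in Control leaflets. Of the 12 genes, 6 had the high pools of Egr2 and Egr3, against 29.5% of all kept probe sets.

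The genes most like Fos over the 4 pools, by the root mean square distance of their centred log2 values among 11259 other genes, each read by its brightest kept probe set, were Fgf14 (0.08), Fas (0.15), Angptl1 (0.16), Rnf121 (0.18) and Panx3 (0.19). Of these, Fgf14 and Fas were dim in Control replicate 2, at 60.6 and 59.0. The probe set of the immediate early genes nearest to Fos was 1417409_at of Jun, at 0.37, while the brighter Jun probe set, by which Jun was ranked, was at 0.70. By their brightest kept probe sets, the other immediate early genes stood at places 4056 (Egr1) to 10078 (Atf3) of the 11259 in likeness to Fos. Those most like Egr1, whose pools differed little, were Ugp2 (0.0071), Ccdc71 (0.011), Lin7c (0.020), Samd1 (0.020) and Epb41l3 (0.026). Nearest to Egr1 among the immediate early probe sets was the same 1417409_at of Jun, at 0.32, followed by Ier2 at 0.34. Ranked by brightest kept probe sets, the other immediate early genes stood at places 5724 (Ier2) to 10544 (Atf3) in likeness to Egr1. Likeness over 4 pools was not tested.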

How the data were processed

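RNA of 4 leaflet pools (50 ng, 2 rounds of amplification per the labels) was hybridised to 1 array each. Each deposited value is a linear intensity, the MAS5 signal of a probe set, per the submitters' processing notes, which name Affymetrix Expression Console and MAS5 without versions. MAS5 subtracts background, so dim signals carry large relative errors, and 2 rounds of amplification lower signal far from the 3′ end.

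The table held 45101 probe sets, 64 of them controls. Signals were taken as log2(signal + 22), with no further normalization, and the 22518 probe sets with a mean above the median were kept. In all, 34945 probe sets had 1 gene symbol in the array's annotation table, 932 several and 9160 none. In the lists, a gene was represented by its probe set with the highest mean.

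The genotype test was that of limma 3.58.1 (R 4.3.3, intensity trend, two-sided, Benjamini-Hochberg over all kept probe sets), which was tested on simulated data. The number of arrays limits the precision. An adjusted p reflects the spread between 2 pools a genotype, which limma draws toward that of other probe sets of similar intensity. An exact permutation test of 2 against 2 cannot reach 0.05. Labels call the pools biological replicates and tie no replicate number to a litter or day, so pools were not paired. The members, lists and tests were chosen with earlier results of these data known. Genes of each list were named by a rule: the 4 with the smallest unadjusted p and the 4 with the widest difference between pools of one genotype. The alternatives were other pseudocounts, filters and scalings, no trend, a replicate block and each array left out.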

Additional observations from a re-analysis of the deposited data

How the results depend on the processing

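In limma, 0 probe sets passed the adjusted threshold with all 4 arrays, also with no pseudocount or one 4 times larger, median centring, quantile normalization, no filter, a filter at the 75th percentile, no trend and the replicate block. With 1 array left out the count was 0 to 673 (8 without Cxcr7-/- replicate 2, 673 without Control replicate 1). In each such fit the lone pool is assumed to vary like the other genotype's pair. None of the 10 genes passed in any of these settings, and no pseudocount, filter or scaling turned the sign of any of their 11 log2 fold changes. With the replicate block the number of calls stayed 0, and Egr1 was at 0.34 ± 0.30 (SE). Same-numbered pools did not deviate together (r = -0.26 across kept probe sets, which are not independent), so the numbers are not taken as pairs.

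Probe sets of the immediate early genes without overlap of the genotypes numbered 1 with all arrays, 0 after quantile normalization, 2 with no filter and 4 to 7 with 1 array left out, where fewer pools make overlap rarer. Among all kept probe sets the share without overlap was 42.4% with all arrays, and it was not taken with 1 array left out. Leaving out 1 array turned the sign of 8 probe sets, whose log2 fold changes ran between -0.16 and 1.19 for Fos, -0.33 and 0.094 for Jun 1448694_at, -0.17 and 0.83 for Jun 1417409_at, -0.66 and 0.075 for Jund, -0.48 and 0.64 for Egr2 1427683_at, -0.076 and 1.12 for Egr2 1427682_a_at, -0.63 and 0.89 for Egr3, and -0.11 and 1.26 for Atf3. The cause was not tested, and sign changes were not counted over all kept probe sets. The number whose pools differed more than the genotypes was 9 of 10 to 13 of 14 over the filters, and 10 or 11 of 11 over the pseudocounts and scalings. The 3 probe sets that were not kept were tested with no filter alone, at log2 fold changes of -0.19 ± 0.55 (SE, adjusted p = 0.957 in limma) for Fosb, 0.26 ± 0.60 (adjusted p = 0.941) for Jund and 0.91 ± 0.58 (adjusted p = 0.767) for Egr3. Leaving out 1 array was also tried, after the data were seen, for 10 named genes of the wider lists with an unadjusted p under 0.1. The sign of 0 of the 10 changed. Without Control replicate 1 and 2 in turn, Nr4a2 was at 1.33 and 0.65, Hbegf at -1.80 and -1.60, and Ier3 at -1.82 and -0.74. These genes were picked by their p in the same arrays, so the refits are no separate support for a difference.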
